A study of Mus musculus with 10 samples.

Results

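Transcripts of 10 secreted products of the Paneth cell were examined by RNA-seq in proximal small intestine of mice with *Zip14* ablation. The genes were taken by name from a list drawn up with earlier results of these data known. They are lysozyme 1 (*Lyz1*), the defensin-processing protease matrilysin (*Mmp7*), angiogenin 4 (*Ang4*), intelectin 1 (*Itln1*) and 6 α-defensins (*Defa17*, *Defa21*, *Defa22*, *Defa24*, *Defa26* and *Defa30*). They are 10 of the 35275 gene IDs counted in each library, and all 10 passed the filter on low counts that left 15610 genes for testing. *Zip14* (*Slc39a14*) encodes a membrane transporter that brings zinc and other metals into cells. There were 5 KO and 5 WT libraries, each from the frozen proximal intestine of 1 mouse aged 8 to 10 weeks per the labels. The methods of the study describe a whole-body *Zip14* deletion for the RNA-seq, with WT mice of the same strain from heterozygous matings, whereas the series title names a deletion in enterocytes and the labels say only KO. The label for treatment holds only this age, and the sex of each mouse was not given.

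Paneth cells sit at the base of the small intestinal crypts, between the stem cells, and release granules of antimicrobial proteins into the crypt lumen. The α-defensins are made as inactive precursors, and matrilysin cuts them to the active peptides in the mouse. Lysozyme splits bacterial cell walls, angiogenin 4 is a microbicidal ribonuclease and intelectin 1 is a lectin that binds microbial sugars. Zinc is stored in Paneth granules, and Paneth cells become more numerous towards the ileum.

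The α-defensin genes are close copies, so the sequences come before the values. The 6 genes lie on chromosome 8 (GRCm38, plus strand), each with 2 exons. A stretch of 30 bases from the coding part of exon 2 is shown because, of all such stretches, it tells the most of the 6 genes apart. Capitals mark the 15 positions at which the 6 genes are not all alike, and 5 distinct sequences are found.
*Defa17*, chr8:21656590-21656619: GAatgggacctgcAGAAAGGGtCAtttAAT
*Defa21*, chr8:21026372-21026401: TTatgggacctgcGCAGGACCtTTtttGCG
*Defa22*, chr8:21163104-21163133: TTatgggacctgcGCAGGACCtTTtttGCG
*Defa24*, chr8:21735326-21735355: GAatgggacctgcAGTAAGGGtCAtttATT
*Defa26*, chr8:21618831-21618860: TAatgggacctgcAGAAAGGGtCAtttAAT
*Defa30*, chr8:21135452-21135481: GAatgggacctgcAGTAAGGGtCAtttAAT
*Defa21* and *Defa22* carry the same sequence here, and their transcripts matched at 416 of 418 aligned bases (99.5%). *Defa21* and *Defa24* matched at 80.6% of aligned bases.

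How far reads could be shared was described by cutting each member's exons into all stretches of 50 or 100 bases and looking for each in the transcripts of other genes. Of the stretches of 100 bases, 90.6% in *Defa17* also occurred in *Defa3*, and 40.4% in *Defa21* also occurred in *Defa22*. The share was 1.1% in *Defa26*, 0.334% in *Defa30* and 0 in *Defa24*. Of the stretches of 50 bases, 28.1% in *Defa24*, 40.2% in *Defa26* and 52.4% in *Defa30* occurred in another gene. *Lyz1* shared 2.06% of its stretches of 100 bases with *Lyz2*, the lysozyme of macrophages. *Mmp7* shared 2.58% with *AV064505*, which overlaps it on the other strand, and how strand was counted is not known. Values of *Defa17*, *Defa21* and *Defa22* are therefore uncertain as those of single genes, whereas *Ang4* and *Itln1* shared none at 100 bases.

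Promoter sequence (250 bases before to 50 after the start, RefSeq, GRCm38.p6) was found for 7 of the 10 members, and the missing entries are *Defa17*, *Defa24* and *Defa26*. The promoters were searched on both strands for CTTTGA, the core of the site bound by the TCF factors of Wnt signalling, which is read as TCAAAG on the other strand, and for TATAAA, the TATA box. CTTTGA occurred in 16% and TATAAA in 13.6% of 32851 promoters. Both were found in *Defa21*, *Defa22*, *Defa30* and *Mmp7*, and neither was found in *Lyz1*, *Ang4* and *Itln1*. The *Defa21* windows are shown because *Defa22* has the same 300 bases of promoter, with the motifs in capitals and positions counted from the start site.
*Defa21* at -111, chr8:21025422-21025451: gacattggcacaTCAAAGagatcttaatga
*Defa21* at -71, chr8:21025462-21025491: tcccagttcccaTCAAAGagtgccttctct
*Defa21* at -31, chr8:21025502-21025531: ctttctctgcccTATAAAtataggctggct
*Defa30* at -141, chr8:21134497-21134526: gacaaaggaacaTCAAAGggaactggaggg
These are matches of letters only, and binding was not measured in these files.

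The libraries held 16729787 to 20819678 counts in WT and 17118742 to 19414828 in KO. Values are CPM, counts scaled to a fixed library total, after TMM scaling, which corrects for library size and for a few genes that take a large share of the counts. *Slc39a14* was 190.8 to 356.8 CPM in WT and 78.5 to 160.1 CPM in KO, without overlap (log2 fold change -1.35, SE 0.22, edgeR adjusted p = 0.00184). Summed levels of marker lists also separated the groups. The ileum list (6 genes, led by the bile acid binding protein *Fabp6*) summed to 210 to 312 CPM in WT and 3320 to 10600 CPM in KO, and the proximal list (6 genes) to 3690 to 3990 CPM in WT and 34.5 to 797 CPM in KO. Most of the proximal sum was the lactase gene *Lct*, and of the 5 genes of that list that were tested, 2 were called lower and 2 overlapped between groups. By the ileum genes and *Lct* the KO libraries went against their label of proximal intestine, and intestinal region and genotype cannot be told apart. The smooth muscle list (8 genes) summed to 1070 to 1900 CPM in WT and 2830 to 8620 CPM in KO, and the pan-epithelial list (10 genes) to 9840 to 12000 CPM in WT and 13400 to 18300 CPM in KO. The enterocyte list (7 genes) went the other way, with 23800 to 35600 CPM in WT and 9160 to 20500 CPM in KO. Of its genes 5 were called lower, against 13.9% of all genes. The part of these differences in the results that follow was not tested. In bulk tissue, fewer Paneth cells and less RNA per Paneth cell cannot be told apart.

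The 10 members together took 0.827% to 2.96% of the counts of a WT library and 0.883% to 4.02% of a KO library. Per kilobase of exon, and averaged over the 10 libraries, *Defa24* was the most abundant at 14130 CPM per kb. *Defa30* (4774), *Defa21* (4266), *Defa22* (4192) and *Lyz1* (3976) followed on the same scale. *Defa24* exceeded *Defa30* in 10 of 10 libraries.

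Below these came *Defa17* (2346 CPM per kb), *Itln1* (1721), *Ang4* (857), *Defa26* (239) and *Mmp7* (84.6). *Lyz1* exceeded *Defa17* in 5 of 5 WT and 4 of 5 KO libraries, and the same counts held for *Defa17* over *Itln1* and for *Itln1* over *Ang4*. The order from *Defa30* to *Lyz1* was not kept within libraries. *Defa30* exceeded *Defa21* in 4 of 5 WT but 2 of 5 KO libraries, and *Defa22* exceeded *Lyz1* in 1 of 5 WT and 3 of 5 KO libraries. The ranges of all 9 neighbouring pairs overlapped.

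**Figure D1:**
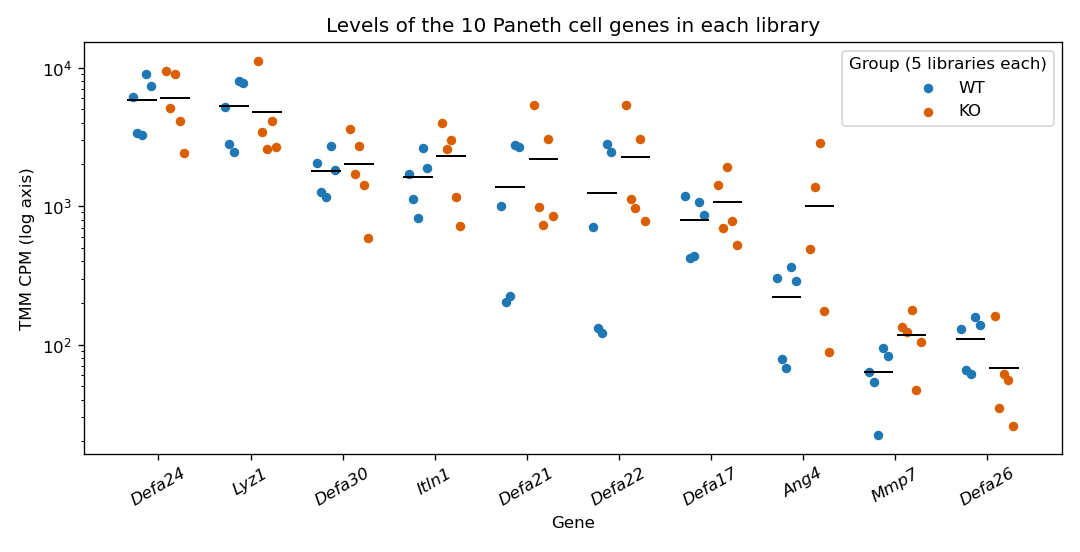
TMM CPM (log axis) of each of the 10 members, with 1 point per library, WT and KO side by side and the group mean as a bar. The points of both groups overlap for every member, and *Ang4*, *Defa21* and *Defa22* spread the most, with a highest library 41.9, 26.4 and 44.5 times the lowest.

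The comparison of KO with WT asks whether Paneth cell products change with *Zip14* ablation. No member passed the edgeR quasi-likelihood test at an adjusted p of 0.05, against 29.9% of the 15610 genes tested. At an unadjusted p under 0.05 there were 2 members, *Ang4* and *Mmp7*, against 43.3% of genes, and DESeq2 called 1, *Ang4*, against 28.2% of the genes it tested (14.9% higher and 13.2% lower in KO). The groups overlapped for all 10 members, whereas they did not overlap for 21.1% of genes (10.2% higher and 10.8% lower in KO). The log2 fold change was positive for 8 of 10 members, with a median of 0.46 against 0.03 over all genes tested. With libraries scaled to their pan-epithelial counts it was positive for 6. The difference of mean log2 CPM was just below 0 for *Defa24* (-0.0095) and *Defa30* (-0.0163), which are among the 8. The sum of the 6 α-defensin members was 11150 ± 5894 CPM in WT and 13610 ± 7543 CPM in KO (SD, n = 5 each), a difference smaller than either SD.

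**Figure D2:**
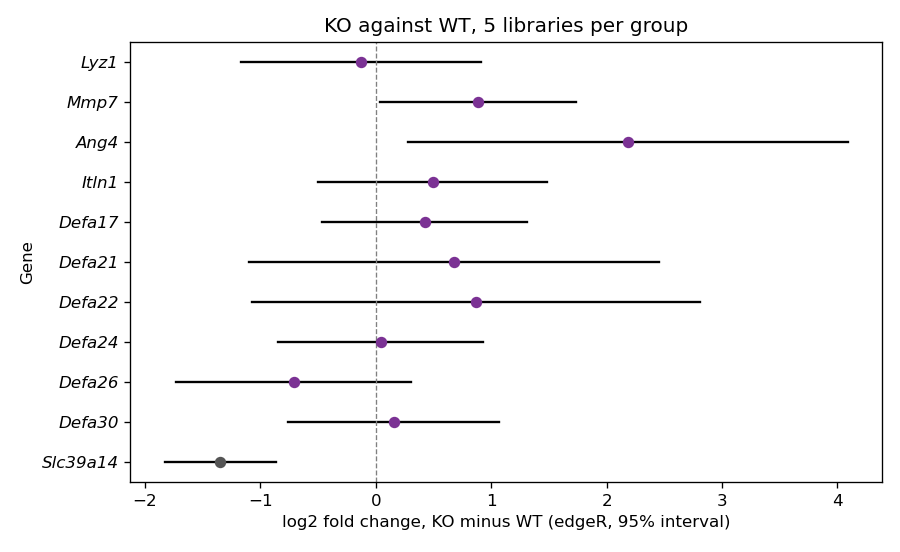
Log2 fold change of KO over WT (edgeR) for each member and for *Slc39a14*, with lines for the 95% confidence interval. The intervals of *Ang4* (0.28 to 4.09) and *Mmp7* (0.04 to 1.74) lie above 0 before adjustment for multiple tests, and those of the other 8 members include 0.

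*Lyz1* is the classical Paneth cell marker. In WT replicates 1 to 5 it was 5187, 2825, 2468, 7982 and 7787 CPM, and in KO replicates 1 to 5 it was 11140, 3404, 2604, 4135 and 2691 CPM. One KO library was above all the others, and the remaining 4 lay within the WT range. Its log2 fold change was -0.13 (SE 0.47, edgeR adjusted p = 0.855), and the 95% interval from -1.17 to 0.91 includes changes of sizeable extent in both directions. The sign turned positive when any of WT replicates 4 and 5 or KO replicates 3 and 5 was left out, and the values over the fits without 1 library ran from -0.71, without KO replicate 1, to 0.06. *Lyz2*, which macrophages express, was 111 ± 12 CPM in WT and 147.8 ± 38.6 CPM in KO (SD, n = 5 each). Per length it reached at most 151.7 CPM per kb in any library.

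*Defa24*, the most abundant of the defensins per length, also did not pass the edgeR test. Its values were 6133, 3388, 3255, 9033 and 7339 CPM in WT, and 9384, 5127, 8997, 4121 and 2432 CPM in KO. KO replicate 3 was thus near the top for *Defa24*, whereas it was the lowest KO library for *Lyz1*. The groups covered nearly the same range. For *Defa24* the log2 fold change was 0.04 (SE 0.40, 95% interval -0.84 to 0.93, edgeR adjusted p = 0.944), and its sign turned when WT replicate 2 or 3 or KO replicate 1 or 3 was left out, with a lowest value of -0.18 without KO replicate 1.

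*Defa30* and *Defa17*, the nearest copies of *Defa24* among the members, were likewise not called. *Defa30* ranged from 1157 to 2706 CPM in WT and from 589.5 to 3579 CPM in KO (log2 fold change 0.16, SE 0.41, 95% interval -0.76 to 1.07), and the fold change was -0.16 without KO replicate 1 and 0.39 without KO replicate 5. *Defa17* ranged from 423.8 to 1175 CPM in WT and from 525.5 to 1918 CPM in KO (log2 fold change 0.43, SE 0.40, 95% interval -0.46 to 1.31), and its counts may include those of *Defa3*. The *Defa17* value was 0.10 without KO replicate 3.

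*Defa21* and *Defa22* varied far more within a group than *Defa24*. *Defa22* was 701.9, 131.9, 121.4, 2830 and 2440 CPM in WT and 5403, 1122, 975.7, 3059 and 782.5 CPM in KO. WT replicates 2 and 3 were the lowest libraries, and every KO library lay above them. KO exceeded WT by a log2 fold change of 0.87 (SE 0.88, 95% interval -1.07 to 2.80, edgeR adjusted p = 0.477).

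*Defa21* was also lowest in WT replicates 2 and 3, with WT values of 1005, 203.2, 225.5, 2752 and 2669 CPM, and was 5357, 982.7, 734.2, 3056 and 846.5 CPM in KO. Its log2 fold change was 0.68 (SE 0.81, 95% interval -1.10 to 2.46). These values rested largely on KO replicate 1, without which they were 0.03 for *Defa21* and 0.25 for *Defa22*, and without WT replicate 4 they were 1.09 and 1.41. As the transcripts differ at only 2 of 418 aligned bases, the likeness of the pair cannot be told apart from shared reads. *Defa2* and *Defa20*, which are outside the 10 genes, were like all 10 members lowest among the WT libraries in WT replicates 2 and 3, at 49.05 and 55.01 CPM for *Defa2* and at 17.93 and 21.76 CPM for *Defa20*. Of their stretches of 100 bases, 100% and 99.7% occurred in another gene, so neither can be read as the value of a single gene.

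*Defa26* had a negative log2 fold change, as *Lyz1* had. It was 128.9, 65.45, 61.42, 157.7 and 138.3 CPM in WT and 159.6, 35.04, 61.42, 55.61 and 25.76 CPM in KO. KO replicates 2 to 5 were at or below the lowest WT library, and KO replicate 1 was above every WT library. This gave a log2 fold change of -0.71 (SE 0.46, 95% interval -1.73 to 0.31, edgeR adjusted p = 0.260). Without KO replicate 1 it was -1.31, with an edgeR adjusted p of 0.0162, so that this library decided the call.

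*Ang4* had the largest edgeR fold change of the members. In WT it was 302.5, 78.33, 67.96, 362 and 286.2 CPM, and in KO it was 491.6, 1377, 2849, 175.6 and 88.87 CPM. KO replicates 2 and 3 stood far above the rest, and KO replicates 4 and 5 lay within the WT range. Its log2 fold change was 2.18 (SE 0.87, 95% interval 0.28 to 4.09), with an adjusted p of 0.0778 in edgeR and 0.0399 in DESeq2. Without KO replicate 3 the log2 fold change was 1.27 (edgeR adjusted p = 0.240), and without KO replicate 5 it was 2.48 (edgeR adjusted p = 0.0366). A fold change fitted to counts gives the highest libraries much weight, and the difference of mean log2 CPM was 1.498 (exact permutation test, two-sided, p = 0.206). By that measure *Defa22* had nearly the same value, 1.502 (exact permutation p = 0.23).

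Other products of the same libraries stood beside *Ang4*. *Mptx1*, a pentraxin of the intestinal epithelium, was 138.2 and 343.3 CPM in KO replicates 2 and 3 and at most 18.9 CPM in the other 8 libraries. The tuft cell list (5 genes) summed to 197.5 and 301.3 CPM in these libraries and to at most 66.9 CPM in the others. The goblet cell list (5 genes) summed to 23650 and 20790 CPM there and to at most 17920 CPM elsewhere, and not all of its genes followed this order. The colon list (5 genes) summed to 1305 CPM in KO replicate 2, 37.1 CPM in KO replicate 3 and at most 55.9 CPM in the other libraries. The part of tuft, goblet or colon cells in the *Ang4* values was not tested.

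*Mmp7* was 63.83, 53.65, 22.11, 94.14 and 82.88 CPM in WT and 133.5, 124.2, 177.2, 47.08 and 104.5 CPM in KO. Of the KO libraries, 4 were above the highest WT library, and KO replicate 4 was below 4 of the WT libraries. The log2 fold change was 0.89 (SE 0.39, 95% interval 0.04 to 1.74, edgeR adjusted p = 0.102), and without KO replicate 4 the edgeR adjusted p was 0.0398. KO replicate 4 was also the library with the highest smooth muscle sum, 8616 CPM, and the part of smooth muscle in the *Mmp7* values was not tested.

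*Itln1* ranged from 827.1 to 2631 CPM in WT and from 721.9 to 4001 CPM in KO (log2 fold change 0.49, SE 0.45, 95% interval -0.50 to 1.48, edgeR adjusted p = 0.427). Without KO replicate 1 its log2 fold change was 0.19. In KO, replicates 1, 2 and 3 were at 4001, 2589 and 3007 CPM, and replicates 4 and 5 were at 1157 and 721.9 CPM.

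The members varied together in WT and only in part in KO. In WT, replicates 2 and 3 had the lowest values of all 10 members, and replicates 1, 4 and 5 had the highest. Other lists split the WT libraries in the same way. The goblet list summed to 11030 and 12030 CPM in WT replicates 2 and 3 and to 15420 to 16730 CPM in the others. The enterocyte list went the other way, with 35610 and 33280 CPM against 23810 to 31150 CPM. In KO, replicate 5 had the lowest value of 7 members, and replicate 1 had the highest value of 7 members. KO replicate 3 was the highest KO library for *Ang4*, *Mmp7* and *Defa17* but the lowest for *Lyz1* (2604 CPM) and *Defa21* (734.2 CPM). When each member was centred within its group and scaled to its SD, the mean profile over the WT replicates was 0.41, -0.99, -1.34, 1.15 and 0.77 SD units. Over the KO replicates it was 1.31, -0.11, 0.59, -0.42 and -1.37. This order describes these libraries, since Paneth cell number was not measured.

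**Figure D3:**
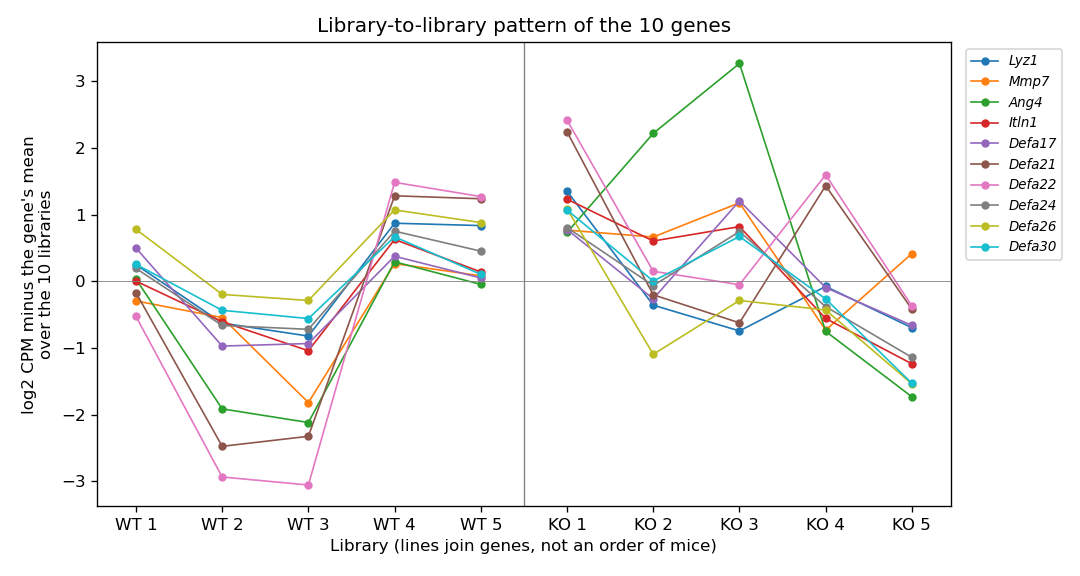
Log2 CPM of each member in each library minus its mean over the 10 libraries, with 1 line per member. WT replicates 2 and 3 lie below 0 and KO replicate 1 above 0 for all 10 members, and *Ang4* is the highest line in KO replicates 2 and 3.

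Among the tested genes outside the members and the α-defensin family, the nearest to this mean profile over the 10 libraries was *Wnt3*, with a root mean square difference of 0.24 SD units. *Asph* (0.285), *Cyp2u1* (0.349), *Cerk* (0.349) and *Frem2* (0.359) followed by the same measure. Of the members themselves, which make up the profile, *Defa24* was the nearest (0.218) and *Mmp7* the farthest (0.735). *Wnt3* encodes a Wnt ligand that Paneth cells supply to stem cells. It was low, at 2.55 to 7.09 CPM in WT and 4.67 to 12.2 CPM in KO, and did not pass the test (log2 fold change 0.62, SE 0.36, edgeR adjusted p = 0.208).

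The spread within groups was wide for every member. The SD of log2 CPM within groups was 1.77 for *Defa22*, 1.67 for *Ang4* and 1.58 for *Defa21*, and 0.74 to 0.86 for the other 7, against a median of 0.27 over all genes tested. The SD of every member exceeded that of at least 92.5% of genes.

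**Figure D4:**
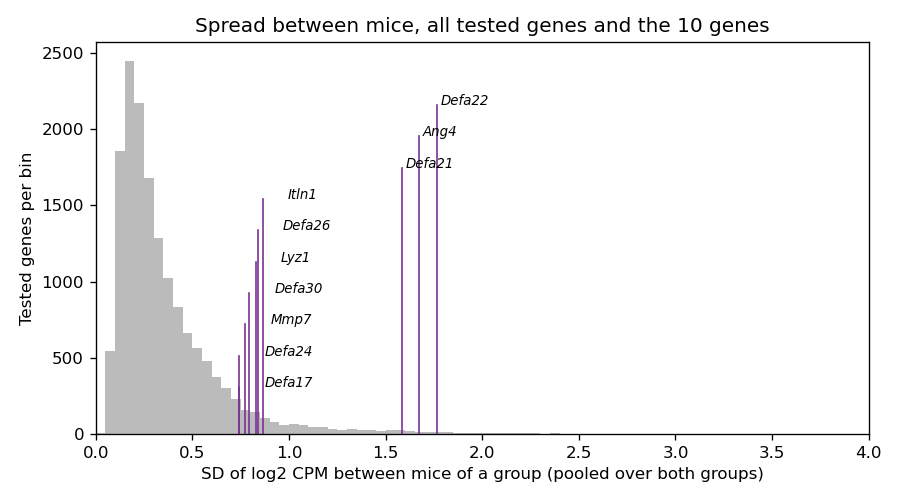
Histogram of the within-group SD of log2 CPM over the 15610 genes tested, with the 10 members marked by lines whose height has no meaning. All members lie to the right of the median of 0.27, and *Defa21*, *Ang4* and *Defa22* lie above 1.5.

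Dividing by *Defa24* in the same library compares the mix of products rather than their total. This measure was chosen after the values were seen. Counts of *Defa26* per 100 counts of *Defa24* were 2.1, 1.93, 1.89, 1.75 and 1.88 in WT and 1.7, 0.683, 0.683, 1.35 and 1.06 in KO. The groups did not overlap, and the mean difference was -0.89 on the log2 scale (exact permutation test, two-sided, p = 0.00794, the smallest that 5 against 5 libraries allow). Adjusted over the 9 ratios to *Defa24*, the exact test gave p = 0.0715, which misses the threshold. With *Lyz1* as the denominator the groups overlapped (-0.70, exact p = 0.0317, adjusted 0.196), and with the sum of the other members they did not (-1.16, exact p = 0.00794, adjusted 0.0794).

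The ratios of the other 8 members to *Defa24* overlapped between groups. *Lyz1* was 75.8 to 106 counts per 100 of *Defa24* in WT and 28.9 to 119 in KO, with the lowest value in KO replicate 3. *Ang4* was 2.09 to 4.93 per 100 in WT and 3.65 to 31.7 in KO, and *Defa22* was 3.73 to 33.2 in WT and 10.8 to 74.2 in KO. The ratio of *Mmp7* reached 1.58 per 100 in WT and 4.3 in KO (log2 difference 0.93, exact permutation p = 0.0476, adjusted 0.143). Those of *Itln1* (0.36) and *Defa17* (0.40 on the log2 scale) each had an exact permutation p of 0.0714 (adjusted 0.143). *Defa30* was nearly the same in both groups, at 25 to 37.2 in WT and 24.2 to 38.1 in KO (log2 difference -0.01, exact permutation p = 0.968).

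**Figure D5:**
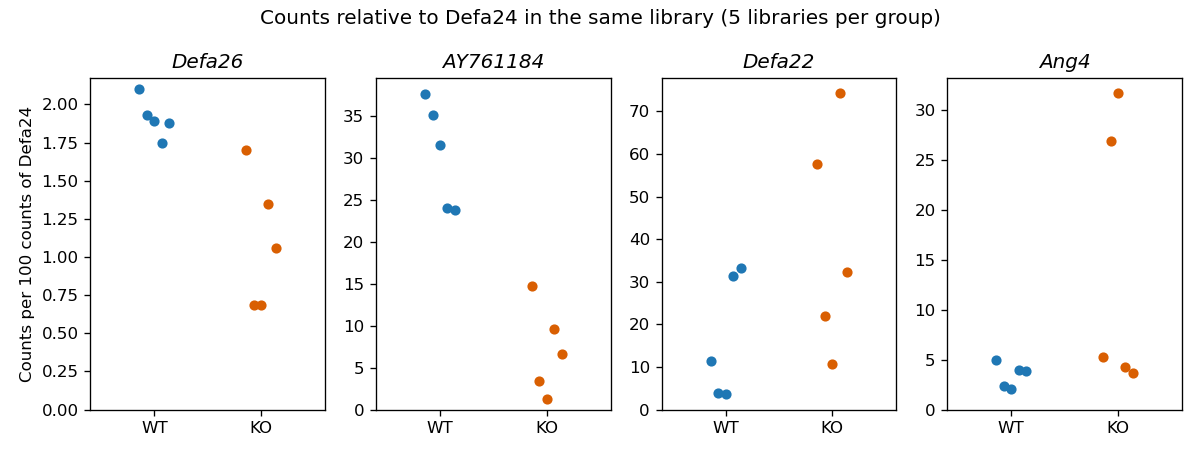
Counts of *Defa26*, *AY761184*, *Defa22* and *Ang4* per 100 counts of *Defa24* in the same library, by group, with 1 point per library and axes from 0. The KO points of *Defa26* and *AY761184* lie below all WT points, and those of *Defa22* and *Ang4* overlap with WT.

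Of the other α-defensin genes, 38 had a gene ID in the counts, 18 were tested, 2 were called higher in KO and 1 lower, against 16.0% and 13.9% of all genes. *Defa32* was 8.77, 0.957, 0.408, 29.1 and 54.4 CPM in WT and 2045, 117.3, 69.8, 1004 and 196.4 CPM in KO, without overlap (log2 fold change 5.19, SE 1.38, edgeR adjusted p = 0.0174). Nearly all of its sequence occurs in other genes of the family, so this value is uncertain as that of a single gene.

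*Defa35* was 1.21 to 21 CPM in WT and 17.5 to 445.4 CPM in KO (log2 fold change 4.54, SE 1.05, edgeR adjusted p = 0.00943). *AY761184*, a gene of the same cluster on the minus strand, was 1030 to 2315 CPM in WT and 114.4 to 1381 CPM in KO (log2 fold change -1.93, SE 0.64, edgeR adjusted p = 0.0434). Its call was lost when any library other than KO replicate 1 was left out, with log2 fold changes from -2.06 to -1.69 and edgeR adjusted p between 0.0567 and 0.0887. Without KO replicate 1 the log2 fold change was -3.00 (edgeR adjusted p = 0.000606). Per 100 counts of *Defa24* it was 23.8 to 37.7 in WT and 1.27 to 14.7 in KO. All 44 α-defensin genes together came to 17140 ± 9024 CPM in WT and 20870 ± 14140 CPM in KO (SD, n = 5 each).

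The remaining lists cover the Paneth cell beyond its main products. Of 6 genes listed as other granule products, 1 was called higher, against 16.0% of all genes. This was *Nupr1*, which encodes a nuclear regulator of the stress response and not a granule protein, at 19.3 ± 11.5 CPM in WT and 47.8 ± 16.3 CPM in KO (SD, n = 5 each, edgeR adjusted p = 0.0261). The call was lost without WT replicate 1 or 2 or KO replicate 3 (edgeR adjusted p 0.0638 to 0.0649). The pentraxins *Mptx1* (log2 fold change 3.21, SE 1.21) and *Mptx2* (1.74, SE 0.83) did not pass, and neither did the other 3 genes of the list. DESeq2 called *Mptx1* (adjusted p = 0.0266), as edgeR did without KO replicate 1, 4 or 5 (adjusted p 0.0301 to 0.0489), and without KO replicate 3 its log2 fold change was 1.84 (edgeR adjusted p = 0.214).

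Of 10 lineage factors, 3 were called higher by edgeR, against 16.0% of all genes. *Atoh1*, which sets the secretory fate, had a log2 fold change of 0.95 (SE 0.23, edgeR adjusted p = 0.0109). *Spdef*, which acts in goblet and Paneth cell maturation, had 1.12 (SE 0.18, edgeR adjusted p = 0.00175), and *Ephb3*, which keeps Paneth cells at the crypt base, had 0.74 (SE 0.17, edgeR adjusted p = 0.0106). The other 7 had log2 fold changes from -0.19 to 0.55 and did not pass. Goblet and enteroendocrine cells also arise from cells with *Atoh1*. Of 5 goblet genes, 3 rose, against 16.0% of all genes. These were *Muc2* (1.31), *Clca1* (1.69) and *Tff3* (0.66 on the log2 scale), of which *Clca1* and *Tff3* were named after their values were seen. The goblet genes with the highest mean CPM over all 10 libraries, *Fcgbp* (-0.24, edgeR adjusted p = 0.398) and *Zg16* (0.25, edgeR adjusted p = 0.335), did not pass, and scaled to pan-epithelial counts they were -0.70 (edgeR adjusted p = 0.0107) and -0.20. Of 6 enteroendocrine genes, 5 were called lower and 1 higher, against 13.9% and 16.0% of all genes, and their summed level was 323 to 448 CPM in WT and 123 to 211 CPM in KO.

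Of 8 genes of granule packaging, 1 was called higher and 1 lower, shares close to the 16.0% and 13.9% of all genes. *Agr2*, a protein disulfide isomerase of secretory cells, rose by 1.005 on the log2 scale (SE 0.17, edgeR adjusted p = 0.00222). *Slc30a2*, which carries zinc into Paneth granules, was 87.5 to 113.2 CPM in WT and 40.4 to 99.1 CPM in KO (log2 fold change -0.62, SE 0.21, edgeR adjusted p = 0.0424). The *Slc30a2* call was lost in the fits without any single WT library and without each of KO replicates 2 to 5 (edgeR adjusted p 0.0537 to 0.0951). Of 5 niche signals, 1 was called lower, against 13.9% of all genes. This was the Notch ligand *Dll1*, at 35.1 ± 3.21 CPM in WT and 18 ± 3.87 CPM in KO (SD, n = 5 each, edgeR adjusted p = 0.00108).

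The reference used for scaling changed some directions. With each library scaled to its counts of the pan-epithelial list, which was higher in KO, the log2 fold changes of *Defa24* and *Defa30* turned to -0.37 and -0.27, and *Defa26* passed the edgeR test (-1.14, SE 0.44, adjusted p = 0.0457). That scaling called 7401 of 15610 genes lower and 691 higher, so a call of 1 member lower is not particular to the members. It moved the median of all genes tested to -0.45, so that *Defa24* lay close to this median. *Atoh1* (0.50, adjusted p = 0.0557), *Ephb3* (0.28, adjusted p = 0.198) and *Tff3* (0.21, adjusted p = 0.25) kept their direction but did not pass the edgeR test under this scaling.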

How the data were processed

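Total RNA of frozen proximal intestine was sequenced (SMARTER mRNA-Seq kit, NovaSeq), with 1 library per mouse. The deposited values were raw counts per Ensembl gene ID and library, made by the authors. The submitters' processing notes name FastQC 0.11.9, Trimmomatic, HISAT2 2.0.4, SAMtools 1.3.1 and DESeq2 1.14.1, with GRCm38 (mm10). Counter, annotation and strand setting: not given in the sources used here. Reads that match several α-defensins may have been dropped or split.

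Symbols and positions came from GENCODE M21, which named 34490 of 35275 gene IDs. Counts were tested with edgeR 4.0.16 (filterByExpr with a minimum count of 10, TMM, quasi-likelihood, Benjamini-Hochberg adjustment over all 15610 genes, threshold 0.05) in R 4.3.3. Single values were compared by exact permutation tests (252 arrangements, log2 CPM, prior count 2). DESeq2 1.42.0, other scalings and filters, covariates, a replicate block and leaving out each library were alternatives. The members and gene lists were chosen with earlier results of these data known. By rule, genes named could be the members, *Slc39a14*, any tested gene of the Paneth lists (mainly those called were named), up to 3 genes of highest mean CPM in each other list and the 5 genes nearest the members' profile. *Clca1* and *Tff3* fall outside it. P-values measure the spread between these mice.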

Additional observations from a re-analysis of the deposited data

Results flagged for a closer look

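In KO replicate 1, 3 values stood apart from the other 4 KO libraries by Dixon's test, in which the gap to the nearest library is divided by the range of the group. *Lyz1* was 11140 CPM, *Defa26* was 159.6 CPM and *Slc39a14* was 160.1 CPM in this library. With 30 groups of 5 libraries tested and a critical value of 0.71, chance flags about 5% of groups. *Slc39a14* in KO replicate 1 was still below the lowest WT library, at 190.8 CPM.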

How the results depend on the processing

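The count of called members was 0 in the reported fit. It moved to 1 higher with DESeq2, against 14.9% of genes, and to 1 lower with scaling to pan-epithelial counts, against 7401 of 15610 genes. When single libraries were left out the count ranged from 0 to 1 in each direction. Without KO replicate 4 *Mmp7* was called higher, beside 2084 of 15720 genes. Without KO replicate 5 *Ang4* was called higher, beside 2555 of 15820 genes. Without KO replicate 1 *Defa26* was called lower, beside 2563 of 15874 genes. The log2 fold change of *Slc39a14* ranged from -1.57 to -1.21 over the fits without 1 library. It was -0.561, no longer past the threshold, with a smooth muscle score as a covariate, and 1.80 with an ileum score, and the causes were not tested. The groups do not overlap in the smooth muscle score either (mean log2 CPM at most 7.40 in WT and at least 8.08 in KO). Neither fit can therefore tell its score from genotype.

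The fold changes of members changed sign in 22 of 200 alternative fits and kept sign in the rest. Without single libraries *Lyz1* ranged from -0.713 to 0.057, *Defa24* from -0.176 to 0.245 and *Defa30* from -0.163 to 0.39. The smooth muscle score gave -0.234 for *Defa21*, -0.195 for *Defa22*, -0.083 for *Defa24*, 0.117 for *Fcgbp* and -0.286 for *Zg16*. Scaling to pan-epithelial counts gave -0.371 for *Defa24*, -0.267 for *Defa30*, -0.226 for *Asph*, -0.029 for *Lyz2* and -0.199 for *Zg16*. The groups do not overlap in the ileum score, so its fit cannot tell the score from genotype. That fit called 0 of 15610 genes, and the smallest edgeR adjusted p of a member was 0.955. No direction can be read from its values. The ileum score gave -3.342 for *Ang4*, -1.237 for *Mmp7*, -0.335 for *Itln1*, -1.988 for *Defa17*, -7.182 for *Defa21*, -8.796 for *Defa22*, -2.45 for *Defa24* and -0.365 for *Defa30*. Outside the members it gave 0.024 for *AY761184*, -0.768 for *Agr2*, -0.509 for *Asph*, -1.128 for *Atoh1*, -9.445 for *Defa20*, -7.025 for *Defa2*, -5.542 for *Defa32*, -5.987 for *Defa35*, 0.021 for *Dll1*, -0.065 for *Ephb3*, -0.119 for *Lyz2*, -2.218 for *Muc2*, -3.647 for *Nupr1*, -0.48 for *Tff3*, -1.673 for *Wnt3* and -1.228 for *Zg16*.

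Over all genes, 2491 were higher and 2169 lower in KO in the reported fit. With library size only the counts were 3608 and 1589 with a median log2 fold change of 0.15, and with scaling to pan-epithelial counts they were 691 and 7401. With the smooth muscle score 5 and 2 genes were called, and with the ileum score 0 and 0. Without a filter 25197 genes were fitted, of which 2174 were called higher and 2035 lower, and 0 members were called. Replicate numbers are shared by the groups but name different mice. Deviations of same-numbered libraries correlated between -0.167 and 0.177, and those of differently numbered libraries reached 0.186. These correlations cannot decide whether the numbers mark pairs, and the labels do not say so. A fit with the replicate number as a block called 1950 genes higher and 1898 lower. It called 0 members (smallest edgeR adjusted p 0.135, *Defa26*). At 5 mice a group and these SDs, the 95% interval of each member is the limit on what could be seen.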
